A study of Mus musculus and synthetic RNA with 74 samples.

Results

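The enzymes of folate one-carbon metabolism were examined in the transcriptomes of preimplantation mouse embryos, as 8 genes chosen by name: Mthfd1, Shmt1 and Tyms, whose products are cytosolic, and Mthfd1l, Mthfd2, Mthfd2l, Shmt2 and Aldh1l2, whose products are mitochondrial. All 8 were listed among 20330 genes in embryos collected on embryonic day 2.5 (E2.5) and among 21199 genes in embryos of day 3.5 (E3.5). The embryos were collected in a study of the RNA methyltransferase METTL16, which writes N6-methyladenosine on structured RNA, and the same study methylated a randomized RNA library in vitro, which holds no gene and is not used here.

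Single embryos came from crosses of mice heterozygous for a Mettl16 knockout allele, line #2112, in which Cas9 placed a cassette of stop codons in exon 3. The founders were made in B6D2F1/J embryos and crossed to C57BL/6JRj mice, and all sequenced embryos descend from this 1 line. At E2.5, when embryos are morulae, 5 wild-type (WT), 14 heterozygous (HET) and 12 knockout (KO) embryos were sequenced, 31 in all. At E3.5, when embryos are blastocysts, 18 WT, 9 HET and 12 KO embryos were sequenced, 39 in all. The genotype of an embryo was read from the allele-specific reads of its own library. Polyadenylated RNA was amplified by Smart-seq2, a protocol that copies full-length transcripts without keeping the strand.

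The values available for every gene, exon and intron are means over all embryos of a stage, with the 3 genotypes pooled, so WT embryos weigh 16.1% of the E2.5 mean and 46.2% of the E3.5 mean. No value per embryo was at hand. For this reason no error between embryos, no test and no comparison of genotypes is given, and every statement below describes the stage means. The means of the 2 stages were normalized separately. Their sums over all genes were 23557112 normalized counts at E2.5 and 27145016 at E3.5. For a comparison of stages each gene was expressed as normalized counts per 1000000 of the sum of its own stage (ppm).

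In the folate cycle, serine hydroxymethyltransferase moves a carbon from serine to THF, which makes glycine and 5,10-methylene-THF. SHMT1 does this in the cytosol and SHMT2 in mitochondria. Inside mitochondria, MTHFD2 or MTHFD2L oxidizes 5,10-methylene-THF to 10-formyl-THF, and MTHFD1L releases the carbon as formate, while ALDH1L2 oxidizes 10-formyl-THF to carbon dioxide and makes NADPH. Formate that leaves the mitochondria is bound to THF again by MTHFD1, a trifunctional cytosolic enzyme that supplies 10-formyl-THF for purines and 5,10-methylene-THF for thymidylate synthase (TYMS), which makes the thymidylate needed for DNA replication.

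Some stretches of these genes bear on the measurements that follow, and they are shown here 5′ to 3′ from the RefSeq genome build GRCm38.p6, whose chromosome coordinates are those of mm10. The first set concerns the nonamer UACAGAGAA, the recognition sequence of METTL16 that was kept constant in the in vitro library. In DNA letters it was found in 804 of 24467 transcripts searched (3.29%), 1 transcript for each gene, on the sense strand only. Of the 8 genes, only Mthfd1l held it, in exon 17, inside the coding sequence. A longer Mthfd1l transcript held it again in its own last exon, outside the coding sequence. Among transcripts of 3000 to 4500 bases, the range of Mthfd1 and Mthfd1l, 4.58% held it, and the established METTL16 target Mat2a held it 5 times. A match of these letters says nothing about methylation, which was not measured in embryos. The nonamer is in capitals in both windows.
Mthfd1l exon 17, chr10:4041815-4041844, + strand: gacagggaagTACAGAGAAaggatattccc
Mthfd1l distal last exon, chr10:4167048-4167077, + strand: agttccaagtTACAGAGAAaaaccctgtct

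The second set shows poly(A) signal hexamers, AATAAA or ATTAAA, in the last exons of the genes whose 3′ ends the results turn on. In the Mthfd1 and Mthfd1l (proximal) windows the hexamer lay 33 and 37 bases before the annotated end of the exon. In the distal last exon of Mthfd1l it lay 281 bases before the end, and in Shmt2 206 bases before it. Tyms differed, because the first hexamer of its last exon lay within the coding sequence, 18 coding bases before the end of the stop codon and 2814 bases before the annotated end of the exon. Mouse Tyms is a textbook case of an mRNA that can be polyadenylated at its stop codon. The hexamer is in capitals.
Mthfd1, chr12:76319770-76319799, + strand: gtgaaggtccagAATAAAtgaaataatttt
Mthfd1l proximal last exon, chr10:4156076-4156105, + strand: ctttgaactgaaAATAAAcatgtgttctag
Mthfd1l distal last exon, chr10:4166783-4166812, + strand: tagataacaaaaAATAAAccacccatattg
Shmt2, chr10:127517317-127517346, - strand: ctgtttttatctAATAAAatgctaacctgc
Tyms, chr5:30061002-30061031, - strand: ccacatccaacgATTAAAatggaaatggct

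The third set shows how far related genes can be told apart by their reads. Mthfd1 and Mthfd1l both had 28 exons, and 22 of these had the same length in both genes when paired by exon number. Over these 2352 bases the 2 genes were identical at 62.7% of positions, and single exons ranged from 43.8% to 80.9%. Mthfd2 and Mthfd2l had 8 exons each, all 6 internal exons had the same length, and their 788 bases were 69.4% identical. Shmt1 and Shmt2 had 12 exons each, none of the same length. Over the exons compared, neither Mthfd1 and Mthfd1l nor Mthfd2 and Mthfd2l were near-identical copies. Shmt1 and Shmt2 were not compared base by base. The first 30 bases of exon 20 of Mthfd1 and Mthfd1l and of exon 4 of Mthfd2 and Mthfd2l are given below, with positions that are the same in both genes in capitals, 22 and 21 of 30.
Mthfd1 exon 20, chr12:76303634-76303663, + strand: GGcACgCCaGTGTTTGTcCAtGCcGGgCCt
Mthfd1l exon 20, chr10:4056750-4056779, + strand: GGaACaCCtGTGTTTGTgCAcGCtGGtCCc
Mthfd2 exon 4, chr6:83311333-83311362, - strand: AgCAcaTtGATGAGAGgAaggTcTGCAATG
Mthfd2l exon 4, chr5:90959705-90959734, + strand: AcCAtgTaGATGAGAGaAcaaTaTGCAATG

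The cytosolic enzymes were the 3 most abundant of the 8 at both stages. To compare genes, the mean normalized count was divided by the length of all annotated exons of a gene in kilobases. On this scale the median gene stood at 14.5 at E2.5 and at 21.4 at E3.5. Tyms stood at 1919 per kb at E2.5 and at 1667 at E3.5, higher than 94.7% and 93.4% of genes. Mthfd1 followed with 877 and 1274 per kb, higher than 90.4% and 92.0% of genes. Shmt1 had 716 and 974 per kb, higher than 89.0% and 90.4% of genes.

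The mitochondrial enzymes spread over a far wider range. Mthfd2, the dehydrogenase and cyclohydrolase known for high levels in embryos and tumors, had 410 per kb at E2.5 and 277 at E3.5. Shmt2 had 216 and 420 per kb, so that by gene means these genes changed places in the order between the stages. Mthfd1l, the formate-releasing enzyme, had 22.6 and 60.9 per kb, higher than 54.8% and 60.5% of genes. Aldh1l2 and Mthfd2l lay below the median gene at both stages, Aldh1l2 with 1.80 and 6.48 per kb and Mthfd2l with 0.106 and 6.24. Of the 8 genes, 6 lay above the median gene at each stage.

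**Figure D1:**
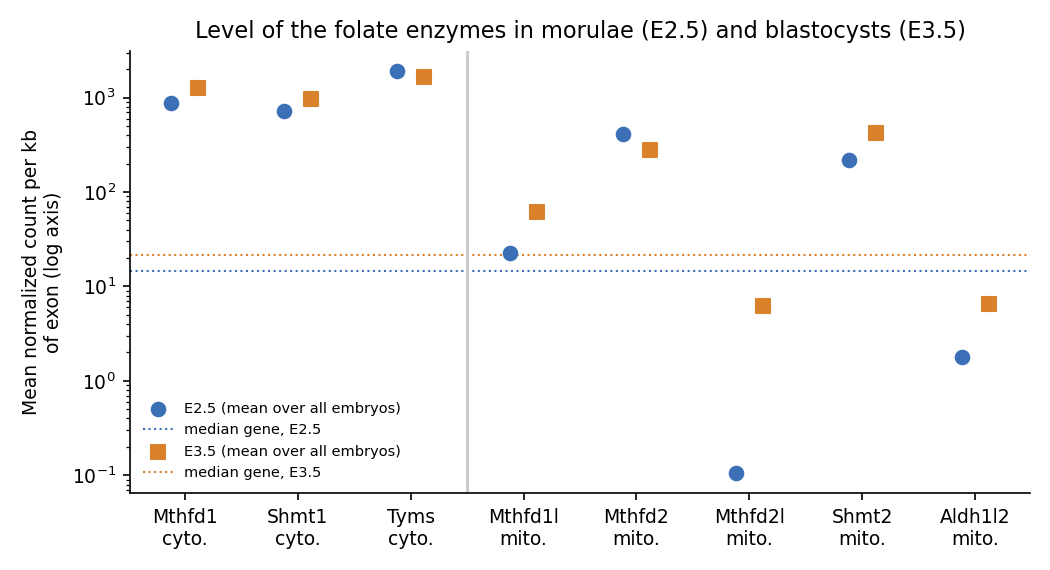
Mean normalized count per kb of exon (log axis) of the 8 folate enzymes, each point the mean over 31 embryos at E2.5 (circles) or 39 embryos at E3.5 (squares), with the median gene of each stage as a dotted line. Tyms, Mthfd1 and Shmt1 stand highest at both stages, and Mthfd2l at E2.5 stands lowest with 0.106; no error between embryos can be drawn.

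Before division by length, the deposited means give the depth behind these levels. At E2.5 the mean normalized count per embryo was 7309 for Tyms, 2916 for Mthfd1, 1478 for Shmt1, 849 for Mthfd2, 499 for Shmt2, 97.9 for Mthfd1l, 10.8 for Aldh1l2 and 0.237 for Mthfd2l. At E3.5 the same genes had 6348, 4233, 2012, 573, 969, 264, 39.1 and 13.99. The 5 most abundant genes therefore rest on at least 499 normalized counts per embryo at either stage. Mthfd2l at E2.5 rests on 7.35 normalized counts summed over all 31 embryos, against 546 summed over 39 embryos at E3.5.

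The order at E2.5 ran Tyms, Mthfd1, Shmt1, Mthfd2, Shmt2, Mthfd1l, Aldh1l2 and Mthfd2l. Neighbours differed least between Mthfd1 and Shmt1 (1.23-fold). The widest gap lay between Aldh1l2 and Mthfd2l, whose mean count of 0.237 was too close to 0 for a ratio to be read. The same order was obtained when the reads counted on single exons were summed. At E3.5 the order was the same except that Shmt2 stood above Mthfd2, 1.52-fold by gene means and 1.47-fold by summed exons. By internal exons it did not, with an E3.5 median of 438 per kb in Shmt2 and 487 in Mthfd2. First exons had 101 per kb in Shmt2 and 105 in Mthfd2 at E3.5, and last exons 695 and 284. Aldh1l2 and Mthfd2l stood within 1.04-fold of each other at E3.5, and summed exons put Mthfd2l 1.12-fold above Aldh1l2. Without values per embryo it cannot be said which neighbours differ beyond their spread.

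Set side by side, SHMT1 and MTHFD1 transcripts exceeded those of their mitochondrial relatives. Shmt1 over Shmt2 was 3.31-fold per kb at E2.5 and 2.32-fold at E3.5. Mthfd1 over Mthfd1l was 38.8-fold at E2.5 and 20.9-fold at E3.5. Mthfd1 over Mthfd2, which share the dehydrogenase and cyclohydrolase activities, was 2.14-fold and 4.60-fold. Within mitochondria Mthfd2 exceeded Mthfd2l 44.4-fold at E3.5, and at E2.5 Mthfd2l was too close to 0 for a ratio to be read.

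The 5 mitochondrial genes made up 15.6% of the summed level per kb of all 8 genes at E2.5 and 16.5% at E3.5. The shares within that sum moved more than the total. Tyms took 46.1% at E2.5 and 35.6% at E3.5, Mthfd1 21.1% and 27.2%, and Shmt1 17.2% and 20.8%. On the mitochondrial side Mthfd2 took 9.85% and 5.91%, and Shmt2 took 5.20% and 8.97%. Without Tyms, whose product is also found in nuclei and mitochondria, the mitochondrial share was 29.01% at E2.5 and 25.5% at E3.5, so that the small difference between the stages took the other direction.

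The Tyms level per kb depends on how its length is counted. Its annotated last exon of 2934 bases makes up 77.0% of the transcript, yet held 9.32% of the summed exon means at E2.5 and 10.9% at E3.5. The exon before it, with 82 bases, stood far higher per kb, by 34.6-fold in morulae and by 38.9-fold in blastocysts. Before division by length these exons were close, with morula means of 1491 for the shorter and 1540 for the last. Blastocysts had 1177 and 1083. Both folds therefore rest mainly on the lengths of the exons. How far a short exon stands high per kb because of its length alone was not tested. Smaller drops into the last exon occurred in other genes at E2.5. Shmt1 went from 2885 to 1074 per kb there and Shmt2 from 907 to 225. Only 138 bases of the last Tyms exon are coding, and the stretch beyond the stop codon is 2796 bases long. Counted up to its stop codon, the transcript has 1012 bases and Tyms a level of 7222 per kb at E2.5 and 6273 at E3.5. The mitochondrial share of the 8 genes was then 6.88% at E2.5 and 8.30% at E3.5, an alternative added after the data were seen.

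Between the stages, 6 of the 8 genes made up a larger part of the total at E3.5 than at E2.5, where 57.3% of 19639 genes listed at both stages did so. With 8 genes and no test, this count says nothing particular about the folate enzymes. The stages were normalized separately, each value is 1 mean per stage, and the genotypes are mixed in other proportions at each stage. In a whole embryo, fewer cells of a type and less RNA per cell cannot be told apart. Mthfd1 had 124 ppm at E2.5 and 156 ppm at E3.5, and Shmt1 had 62.7 and 74.1 ppm. Tyms had 310 and 234 ppm, the lower value at E3.5. The differences of the cytosolic genes were therefore small, with a log2 ratio of 0.33 for Mthfd1, 0.24 for Shmt1 and -0.41 for Tyms.

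Among the mitochondrial genes, Mthfd2 had 36.0 ppm at E2.5 and 21.1 at E3.5, a log2 ratio of -0.77, whereas Shmt2 had 21.2 and 35.7, a log2 ratio of 0.75. Mthfd1l had 4.16 and 9.71 ppm and a log2 ratio of 1.22. Aldh1l2 had 0.460 and 1.44 ppm and a log2 ratio of 1.65. Mthfd2l had 0.0101 and 0.515 ppm, and its log2 ratio of 5.68 rests on the 7.35 normalized counts of E2.5. The median log2 ratio over all genes was 0.30, and the median over the 8 genes was 0.54. Scaling by the median ratio of well expressed genes in place of the totals lowered every log2 ratio by 0.18 and left 6 of the 8 genes above 0.

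The direction between the stages depended on which end of a transcript was read. Reads counted on the first exon alone were a larger part of the total at E3.5 for 1 of the 8 genes, Mthfd2l, and for 38.9% of all genes with reads there. On the last exon alone this held for 6 of the 8 genes and for 67.4% of all genes. Tyms and Mthfd2 were the lower at E3.5 by either exon. These counts were added after the data were seen.

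Mthfd1 showed this exon by exon. Its first exon had a mean of 190 at E2.5 and 37.1 at E3.5, exon 9 had 240 and 44.8, exon 21 had 393 and 351, and the last exon, exon 28, had 298 and 834. The ratio of E3.5 to E2.5 was below 1 in exons 1 to 21 and above 1 in exons 22 to 28. At E2.5 the 26 internal exons lay between 1873 and 5772 per kb, with a median of 2643. At E3.5 they lay between 350 and 8670 per kb with a median of 1180, and the last of them stood 20.4-fold above the first, against 1.86-fold at E2.5. On the log2 scale the exon ratios ran from -2.42 in exon 9 to 1.48 in exon 28. All exon ratios here are ratios of the deposited means, and dividing each stage by its total over exons would add 0.25 to every log2 value. Exon 21 of Mthfd1, with a log2 ratio of -0.16, would then lie above 0.

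Shmt1, with 12 exons, had 254 at E2.5 and 97.0 at E3.5 in its first exon and 451 and 886 in its last. Its ratio crossed 1 between exons 8 and 9, so that 8 exons were lower and 4 higher at E3.5. Shmt2 had 37.7 and 15.8 in its first exon and 179 and 552 in its last, with 9 exons lower and 3 higher at E3.5. These counts depend on the scaling. With 0.25 added, Shmt2 exons 8 and 9, with log2 ratios of -0.18 and -0.07, would also be higher at E3.5. The last Shmt2 exon shares 32 of its 794 bases with Ndufa4l2 on the other strand, whose overlapping exons had means of at most 0.736 at E2.5 and 1.92 at E3.5, and these libraries keep no strand. Exon by exon, Shmt1 stood above Shmt2 per kb in all 12 exon pairs at both stages, from 1.97-fold to 5.85-fold at E2.5 and from 1.92-fold to 5.61-fold at E3.5. These pairs have the same exon number but not the same length. All exons of a gene are read from the same transcripts, so the pairs are not independent comparisons.

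Mthfd2 and Tyms were lower at E3.5 in every exon, 8 of 8 and 7 of 7. In Mthfd2 the first exon had 79.3 at E2.5 and 18.4 at E3.5, and the last exon had 432 and 314, so that the log2 ratio ran from -2.11 to -0.46. In Tyms the first exon had 2523 and 1075 and the last exon 1540 and 1083. The Tyms exons differed least among themselves, with log2 ratios between -1.23 in exon 1 and -0.34 in exon 6. For these genes the lower mean at E3.5 was present at both ends of the transcript.

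**Figure D2:**
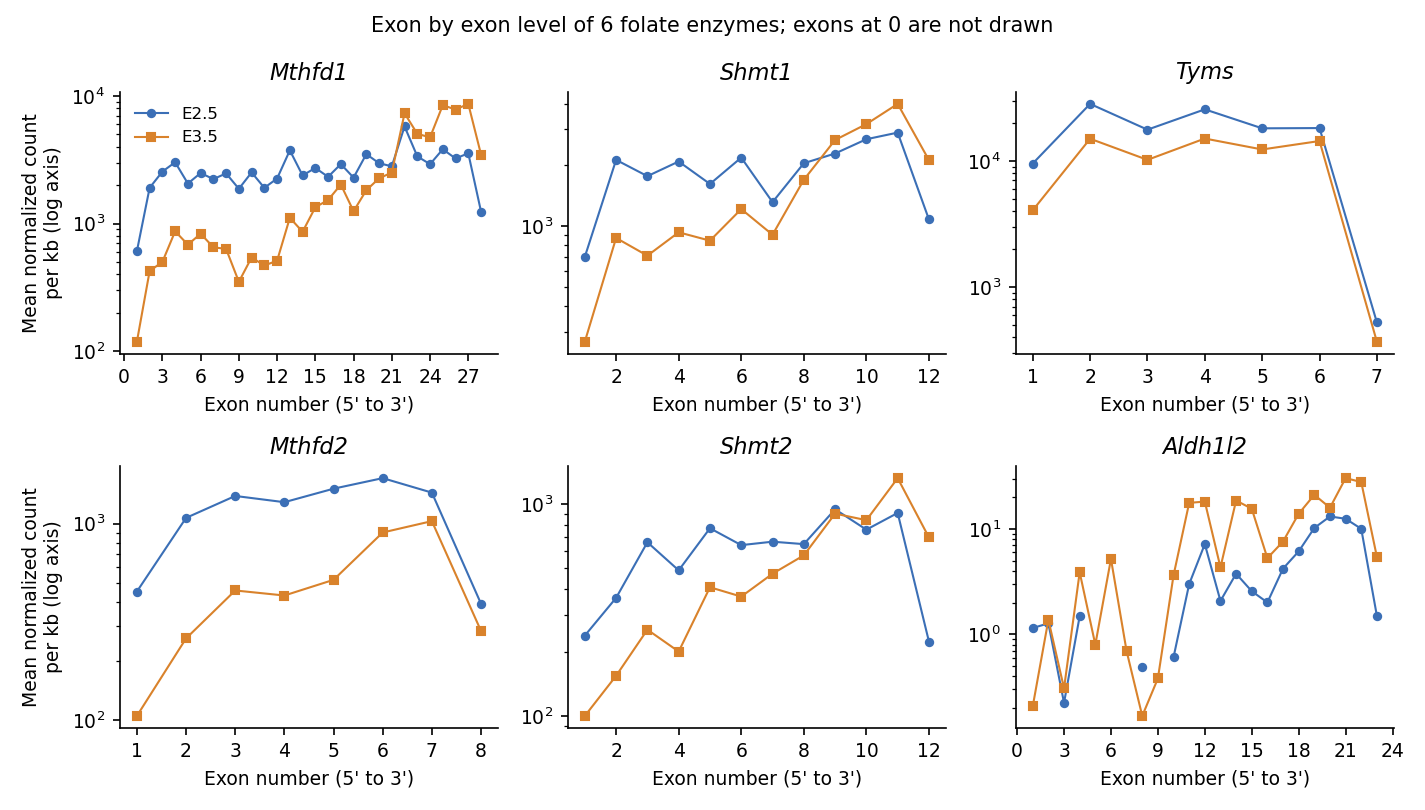
Mean normalized count per kb (log axis) of each exon along the transcript for 6 folate enzymes, at E2.5 (circles, 31 embryos) and E3.5 (squares, 39 embryos). In Mthfd1, Shmt1 and Shmt2 the E3.5 line starts below the E2.5 line and ends above it; in Tyms and Mthfd2 it stays below throughout.

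Such a slope was found in most genes and is not particular to the folate enzymes. Of 6359 genes with at least 4 exons and a mean of at least 10 in both end exons, 94.0% had a higher ratio of E3.5 to E2.5 in the last exon than in the first. The median log2 ratio was -1.14 in first exons and 0.57 in last exons. The difference between them had a median of 1.73 and quartiles of 0.96 and 2.51. Mthfd1 had a difference of 3.84, larger than 96.2% of genes, and Shmt2 had 2.88, larger than 83.6%. Shmt1 with 2.36 stood above 71.3% of genes, Mthfd2 with 1.65 above 47.3%, and Tyms with 0.72 above 18.2%. Mthfd1l, Mthfd2l and Aldh1l2 were too low in an end exon to enter this comparison, with differences of 2.53, 2.84 and 4.32. The cause of this slope was not tested.

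**Figure D3:**
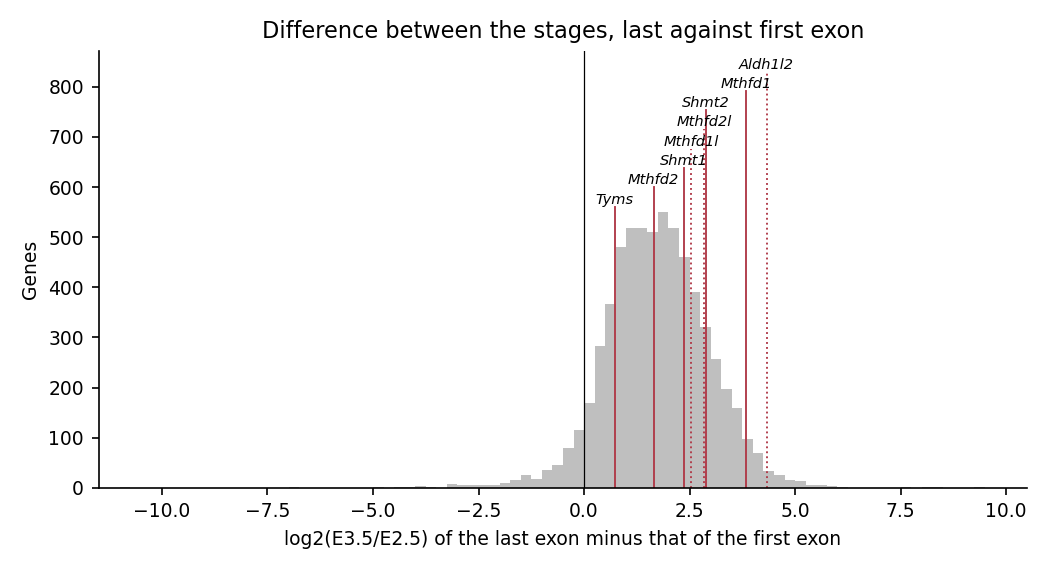
Histogram over 6359 genes of the log2 ratio of E3.5 to E2.5 in the last exon minus that in the first exon, with the folate enzymes as vertical lines (dotted for the 3 genes below the minimum level). Most genes lie right of 0; Tyms (0.72) lies toward the left side and Mthfd1 (3.84) toward the right.

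Mthfd1l had a step in the middle of its transcript. At E2.5 its internal exons 2 to 18 had means between 1.53 and 3.61, with a median of 28.3 per kb, whereas exons 20 to 27 had means between 11.8 and 21.6, with a median of 141 per kb. Exon 19 had a mean of 2.71, within the range of the low stretch, and exon 20 followed with 13.95. Per kb, exon 20 stood 3.17-fold above exon 19 at E2.5. At E3.5 the step lay 1 exon earlier, since exon 19 had 7.16 after 4.08 in exon 18, 3.59-fold higher per kb, and exon 20 had 12.2. This split of the exons was chosen after the values were seen and has no test.

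The same exon numbers of Mthfd1 give a reference for this step, since most have the same length in both genes. At E2.5 exons 20 to 27 stood 4.96-fold above exons 2 to 18 in Mthfd1l and 1.39-fold in Mthfd1, by their medians per kb. Mthfd1 exceeded Mthfd1l 89.1-fold in exon 19 and 23.9-fold in exon 20. In exons 1 to 19 the ratio stood between 61.4 and 101, and in exons 20 to 28 between 20.5 and 27.3, with no overlap. This cut was chosen after the Mthfd1l values were seen, so the lack of overlap is not a test of the step. At E3.5 the ratio dropped from 43.2 in exon 18 to 17.6 in exon 19, but the exons on both sides overlapped, with ratios as low as 14.2 in exon 3 and as high as 35.5 in exon 23. Exons 20 to 27 stood at E3.5 7.77-fold above exons 2 to 18 in Mthfd1l and 9.04-fold in Mthfd1, and the ratio of the genes ran from 13.1 in exon 21 to 61.2 in exon 17.

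**Figure D4:**
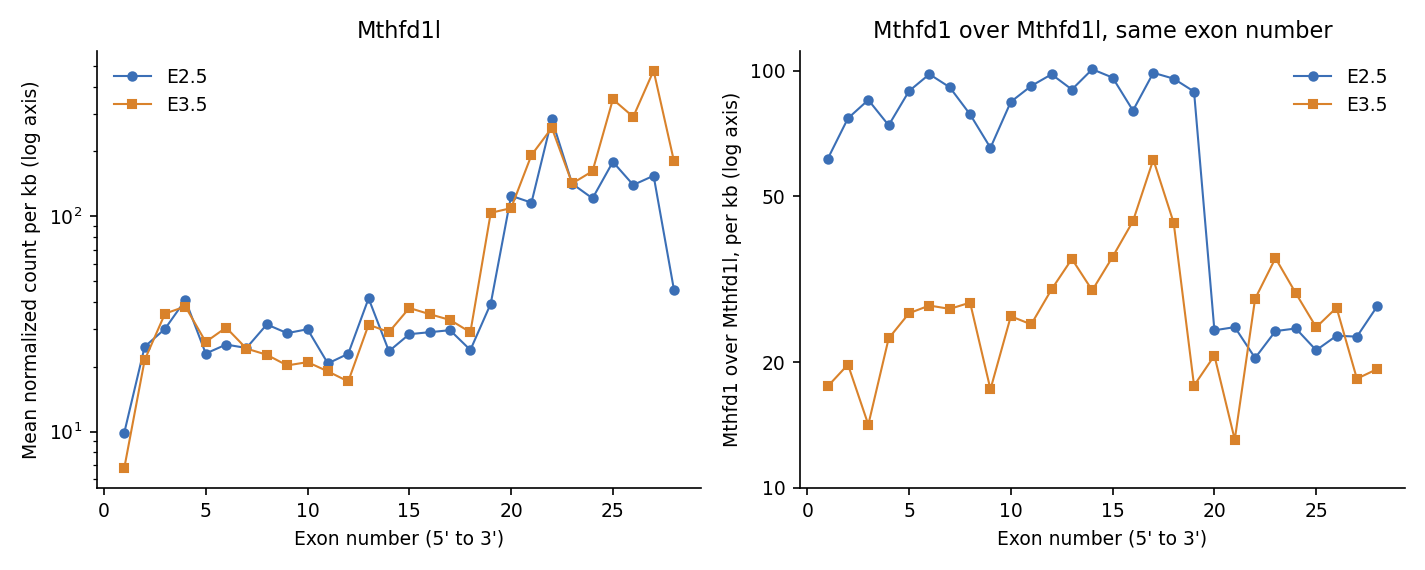
Left, mean normalized count per kb (log axis) of the 28 exons of Mthfd1l at E2.5 (circles) and E3.5 (squares); right, the ratio of Mthfd1 to Mthfd1l per kb (log axis) at the same exon number. At E2.5 the ratio drops from 89.1 in exon 19 to 23.9 in exon 20, while at E3.5 the exons before and after this point overlap.

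The formate-THF ligase domain occupies the C-terminal part of this enzyme, as in MTHFD1. The higher stretch of exons lies toward the 3′ end of the coding sequence. The exon at which this domain begins was not mapped, so neither the stretch nor the step is placed relative to its edge. RefSeq and GENCODE vM21 list 4 transcripts of Mthfd1l each, and 0 of these 8 start between the beginning of exon 18 and the end of exon 20 (chr10:4047831-4056861). The latest listed start, at chr10:4032280, lies within exon 14, inside the low stretch. The intron before exon 20, with 8481 bases, had a mean of 10.8 at E2.5 and 12.8 at E3.5, or 1.28 and 1.51 per kb. Intron 18, with 228 bases, had 0.135 and 0.955, or 0.594 and 4.19 per kb. GENCODE vM21 places 165 bases of the intron before exon 20 in an exon of another Mthfd1l transcript.

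Reads at the 3′ end of Mthfd1l lay mainly on its proximal last exon. The proximal exon of 589 bases had 26.8 at E2.5 and 106 at E3.5, whereas the distal last exon of 601 bases, which starts 10939 bases further, had 0.261 and 1.54. Per kb the proximal exon stood 105-fold above the distal one at E2.5 and 70.5-fold at E3.5. The distal exon is the one with the second nonamer shown above, so few reads of this gene covered that match. The exon with the coding nonamer, exon 17, had 2.28 at E2.5 and 2.54 at E3.5 and lay in the low stretch of the transcript.

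Aldh1l2 was read mainly from its 3′ exons. At E2.5 exons 1 to 10 had means from 0 to 0.247, and 4 of them were listed at 0. The last 4 exons had 2.18, 1.32, 2.00 and 4.77. At E3.5 all 23 exons had reads, exons 1 to 10 up to 0.644 and the last exon 17.3. In GENCODE vM21 the last exon shares 1059 of its 3188 bases with D10Wsu102e on the other strand, a gene with a mean of 2335 at E2.5 and 2318 at E3.5, and reads of the genes there cannot be told apart without strand. The highest Aldh1l2 exon per kb was exon 20 at E2.5, with 13.1, and exon 21 at E3.5, with 30.2.

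Mthfd2l had reads in only the first and the last of its 8 exons at E2.5, with means of 0.211 and 0.0264, and the 6 internal exons were listed at 0. At E3.5 all 8 exons had reads, from 1.09 in exon 2 to 5.08 in exon 1. Its 6 internal exons lay between 5.90 and 16.5 per kb, and Mthfd2 exceeded it there by 40.4-fold to 73.4-fold. MTHFD2L carries out the same reactions as MTHFD2 and is known from adult tissues.

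Intronic reads were a small part of most of these genes. For each gene the summed intron means per kb of intron were divided by the summed exon means per kb of exon. Over genes with an exon sum of at least 100, the median of this ratio was 0.745% for 8720 genes at E2.5 and 1.39% for 9214 genes at E3.5. Of the 8 folate enzymes, 6 passed this minimum at each stage, and 3 of these 6 stood above the median gene at E2.5 and 2 at E3.5. Shmt1 had 0.127% at E2.5 and 0.631% at E3.5, Mthfd1 0.205% and 0.371%, and Mthfd2 0.330% and 0.321%. These genes stood above at most 27.5% of all genes at either stage. Shmt2 had 0.751% and 0.998%, Mthfd1l 0.810% and 1.54%, and Tyms 1.47% and 1.60%, above 39.5% to 70.6% of all genes.

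**Figure D5:**
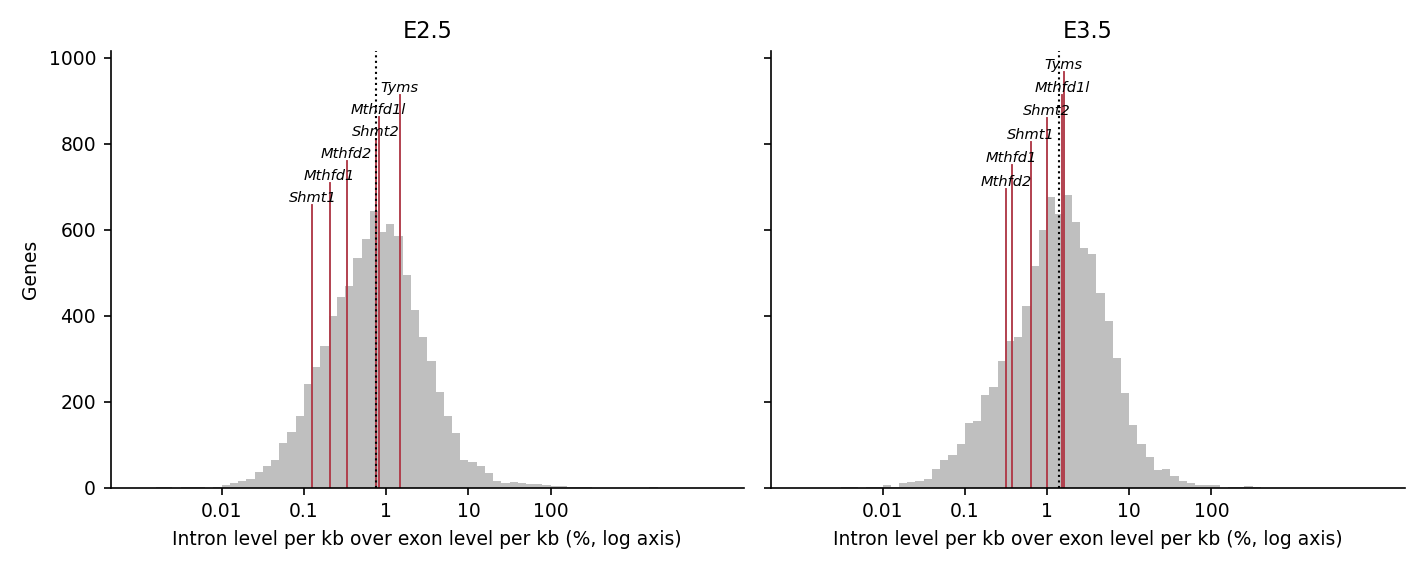
Histograms of the intron level per kb as a percentage of the exon level per kb (log axis) for all genes with an exon sum of at least 100 and some intronic reads, at E2.5 and E3.5, with 6 folate enzymes as vertical lines and the median gene dotted. Mthfd1, Shmt1 and Mthfd2 lie left of the median at both stages; Tyms and Mthfd1l lie right of it.

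Single introns made up much of these sums. In Tyms, intron 2 (chr5:30068641-30071633) had a mean of 509 at E2.5 and 385 at E3.5, 68.8% and 79.6% of all intronic reads of the gene. GENCODE vM21 places 1800 of its 2993 bases in exons of other Tyms transcripts, classed as retained introns or as targets of nonsense-mediated decay. Tyms intron 1 had 166 at E2.5 and 29.3 at E3.5. In Shmt1, intron 8 (chr11:60793072-60794835) had 12.9 and 98.1, which was 51.9% of the intronic reads of Shmt1 at E3.5.

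In Mthfd1, intron 2 had 68.5 at E2.5 and 173 at E3.5. GENCODE vM21 places 492 of its bases in exons of other Mthfd1 transcripts, classed as retained introns. It also holds 331 bases of exons of the annotated gene Gm47526. Intron 8 of Mthfd1 had 69.8 and 58.2 and holds 456 bases of exons of Gm34868, so that reads of the latter cannot be told apart from Mthfd1 in libraries without strand. Mthfd1 intron 5, with 112 bases, was its highest per kb, at 25.9 and 51.7. The highest introns per kb were intron 5 in Mthfd2, with 6.52 and 2.90, and intron 9 in Shmt2, with 7.43 and 21.2. All 90 bases of this Shmt2 intron lie in exons of other Shmt2 transcripts, classed as retained introns. Aldh1l2 had intron sums of 17.7 at E2.5 and 88.7 at E3.5 beside exon sums of 15.4 and 43.6, and its intron 18 alone had 22.2 at E3.5. With an exon sum below 100, Aldh1l2 did not enter the comparison with other genes. When the median over the introns of a gene replaced the sum, 1 of 6 folate enzymes stood above the median gene at E2.5 and 0 at E3.5.

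The wider pathway was read from a list of 31 further genes, all of which were listed at both stages. At E2.5 29 of them stood above the median gene per kb and at E3.5 28. A larger part of the total at E3.5 was seen for 12 of 31, against 57.3% of all genes, with no test. Serine synthesis and glycine cleavage feed carbon into the folate cycle. Of the glycine cleavage genes, Gcsh, the lipoyl carrier protein, had 48272 per kb at E2.5 and 7104 at E3.5, and Amt, the aminomethyltransferase, had 117 and 57.0. In serine synthesis, Psat1 had 16379 and 4249 per kb and Psph, the last enzyme of the pathway, 759 and 386. All 3 serine synthesis genes and 3 of the 4 glycine cleavage genes were a smaller part of the total at E3.5.

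Purine steps that take 10-formyl-THF had 1829 per kb at E2.5 and 951 at E3.5 for Gart and 1000 and 508 for Atic, both smaller parts of the total at E3.5. In the thymidylate pathway, Tk1 had 4826 and 3235 per kb, Dtymk 2664 and 5839, and Dut, which makes the substrate of TYMS, 1034 and 8289. The genes of formate and 10-formyl-THF handling ran at E2.5 from 4.80 per kb for Ftcd to 167 for Mthfsl, with 4 of 5 above the median gene. All 5 were a larger part of the total at E3.5, against 57.3% of all genes, with no test. Their first and last exons were not read separately. Aldh1l1, the cytosolic relative of Aldh1l2, had 27.3 per kb at E2.5 and 182 at E3.5, above Aldh1l2 at both stages.

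In the methyl branch, Mtrr, which reactivates methionine synthase, had 385 per kb at E2.5 and 283 at E3.5. Among 8 genes of folate and serine transport and retention, the folate receptor gene Folr1 was the highest with 11178 per kb at E2.5 and 4054 at E3.5, and Ggh, which removes glutamates from folates, the lowest with 4.46 and 2.25. Of the other mitochondrial folate dehydrogenases, Dmgdh had 728 and 333 per kb and Sardh 72.5 and 2.09.

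The labelled stages were checked against markers. Krt8, a trophectoderm keratin, had 361 per kb at E2.5 and 17084 at E3.5, and 5 of 6 trophectoderm markers were a larger part of the total at E3.5, while Tfap2c was not. The same held for 3 of 5 epiblast and pluripotency markers, not for Pou5f1 and Esrrb, and for 2 of 4 primitive endoderm markers, not for Gata4 and Gata6. The share over all genes was 57.3%, so the epiblast and primitive endoderm counts do not tell the stages apart. None of these counts has a test. Of 4 cumulus and granulosa markers, 2 were listed at E2.5 and 3 at E3.5, and they summed to 0.428 per kb at E2.5 and 0.198 at E3.5. Of 4 blood markers, only Hba-a1 stood at or above the median gene, with 88.7 and 21.4 per kb. Mettl16, the targeted gene, had 286 and 246 per kb in the pooled means, which cannot check the genotype labels.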

How the data were processed

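Per the labels and the study's methods, the authors sequenced Smart-seq2 libraries of single embryos as paired-end reads. They estimated counts of RefSeq transcripts (mm10) with Salmon 0.7.2, summed them to genes and normalized them in DESeq2 1.18.1. They also counted reads on each exon and intron with featureCounts, without strand. The deposited signal used here is the mean of these normalized counts over all embryos of a stage. It is 1 pooled value for each gene, exon or intron, so the depth of single embryos is unknown here and no interval is given. Other deposited columns hold the authors' comparisons between genotypes (log2 fold changes and adjusted p-values) and were not used. The number of unused columns of per-sample values is 0. The table of the in vitro experiment was not used.

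For each gene the transcript with the largest summed exon mean was taken for exons and introns, and the union of all annotated exons for the length. Exon sums exceeded gene means by 1.00-fold to 2.73-fold in the 8 genes. Values in ppm are normalized counts per 1000000 of the summed gene means of a stage. Introns of the 8 genes began with GT and ended with AG in 122 of 122 cases when read from the GRCm38.p6 genome with samtools 1.23.1 and pysam 0.24.0, which checked that its coordinates are those of the files. Other steps used Python 3.11.15, numpy 2.4.6 and pandas 2.3.3, and the measures were tested on simulated data.

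The 8 genes were described in full, and 31 other pathway genes by group, with the highest and lowest gene of each group named by rule, except where a gene is not reported here. Aldh1l1, Dtymk and exons and introns other than the highest and lowest of a gene were named after their values were seen. The genes and lists were chosen with earlier results of these data known. Alternatives to the source of the mean, the length, the scaling and the filters were computed, and their effect is given at the end.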

Additional observations from a re-analysis of the deposited data

How the results depend on the processing

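The mitochondrial share of the summed level per kb (15.6% at E2.5 and 16.5% at E3.5) moved under every alternative tried. With summed exon means it was 13.5% and 14.04%, without division by length 11.1% and 12.9%, with the longest transcript 15.7% and 16.6%, and without Tyms 29.01% and 25.5%. From internal exons only it was 7.61% and 6.64%, and with Tyms counted up to its stop codon 6.88% and 8.30%, both added after the data were seen. Leaving out Tyms and reading internal exons only gave the higher share at E2.5, the other alternatives at E3.5. The count of 6 of 8 genes with a larger part of the total at E3.5 was 6 under the other scalings, sources and filters and on last exons, and 1 on first exons. Of the 6 genes with an intron to exon ratio, 3 at E2.5 and 2 at E3.5 stood above the median gene, and with the median over introns 1 and 0. With an exon sum of at least 1000 the counts were 2 of 5 genes and 2 of 4, and without a minimum 2 of 8 at either stage, then Aldh1l2 and Mthfd2l rather than any of the 6. Leaving out introns that overlap exons of other genes in the deposited gene models removed 0 introns of these genes, so it could not move their values.

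No paired analysis was possible because the values are means over all embryos of a stage. For the same reason no result is given without single embryos. A difference between the stages cannot be told apart from the genotypes pooled in each mean. A mean below 1 normalized count per embryo, as for Mthfd2l at E2.5 (0.237), rests on few reads in all.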
